A study of Mus musculus with 73 samples.

Results

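T, also called Brachyury, is 1 of the 30546 genes in the allele-resolved expression table of this study, and its row was followed over all 72 RNA libraries. It was chosen by name, after its reads in the extraembryonic ectoderm (ExE) had been seen to come mostly from the maternal allele. Its allelic shares in ExE are therefore given below as a description with no test, in the knockouts too, because every knockout was set against the same wild-type libraries. The total level of T and its allelic share in the epiblast did not choose it, and these were tested. The level in ExE is the sum of the reads of both alleles, so its tests are not wholly separate from the share that chose T.

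T encodes a T-box transcription factor that marks the primitive streak, the site on the epiblast where mesoderm and endoderm form at gastrulation. Wnt3, Nodal and Bmp4 signals switch it on, the last of these made by the ExE, the trophoblast-derived tissue that lies against the epiblast and later contributes to the placenta. Imprinted genes are expressed from the allele of 1 parent only, and some do so in ExE alone. T is not among the classical imprinted genes, although it lies on the proximal part of chromosome 17, which also carries the maternally expressed gene Igf2r and its paternally expressed antisense RNA Airn.

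The mouse embryos were collected at embryonic day 6.5. Each was split into epiblast and ExE, the visceral endoderm was removed, and each tissue gave 1 library. The wild-type BDF1xCAST embryos (BDF1 mother, CAST father) gave 7 epiblast and 7 ExE libraries, and the reciprocal wild-type CASTxBDF1 embryos gave 4 and 4. All knockouts had a BDF1 mother and a CAST father. They lacked the maintenance DNA methyltransferase Dnmt1 (3 epiblast and 3 ExE libraries), the H3K9 methyltransferases G9a and Glp together (genes Ehmt2 and Ehmt1; 6 and 8), the PRC1 subunit Rnf2 (6 and 5) or the PRC2 subunit Eed (9 and 10). Cas9 mRNA and guide RNAs were injected into zygotes made by sperm injection, so each embryo was edited separately and products supplied by the egg were left in place. BDF1xCAST embryos grew in CD-1 recipients, whereas the CASTxBDF1 embryos came from natural mating, so that the direction of the cross and the mode of conception cannot be told apart. Samples of bulk tissue do not separate fewer T-expressing cells from less T RNA per cell.

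The libraries held 1141414 to 17653087 reads over positions that differ between the parental strains. The deepest came from the Rnf2 knockout. Each of its epiblast libraries had 5549733 or more, and its ExE embryo 4 had 10263280, although ExE embryo 5 had only 1847681. No wild-type BDF1xCAST library exceeded 3053690. Sequencing depth thus largely went with the Rnf2 genotype, and its part in the Rnf2 results was not tested. The ExE markers on a fixed list summed to 1206 to 1992 CPM (counts scaled to a library total of 1000000) in wild-type BDF1xCAST ExE and to 78.0 to 114 CPM in the epiblast of the same cross. Eed mRNA was below the lowest wild-type library in 9 of 9 Eed epiblast and 10 of 10 Eed ExE libraries. Dnmt1 mRNA in Dnmt1 epiblast was at 24.3% of wild type, with 3 of 3 libraries below the lowest wild-type library. Ehmt2 mRNA in G9a-Glp ExE was at 24.4% of wild type, with 6 of 8 libraries below the lowest wild-type library. The other targeted mRNAs were less clearly lower. Rnf2 mRNA in Rnf2 ExE was at 77.4% of wild type, with 0 of 5 libraries below the lowest wild-type library. Ehmt2 mRNA in G9a-Glp epiblast was at 3.07 CPM, 100% of wild type, and Ehmt1 was below the lowest wild-type library in 2 of 6. A looser rule was applied only to Dnmt1 ExE, Rnf2 ExE and G9a-Glp epiblast. By it the targeted mRNA (Ehmt1 for G9a-Glp) was not below the second-lowest wild-type library in 6 libraries. These were Dnmt1 ExE embryo 1, Rnf2 ExE embryos 2, 5 and 6, and G9a-Glp epiblast embryos 2 and 7. The 6 libraries in doubt were kept, since an edited gene can keep its mRNA, and the tests of total level were also run without them. In G9a-Glp ExE, Ehmt1 was below the second-lowest wild-type library in 5 of 8 libraries and Ehmt2 in 8 of 8. No G9a-Glp ExE library was set aside, so its results include libraries that this rule on Ehmt1 would put in doubt. Over all autosomal genes, 56.1% to 58.6% of reads came from the BDF1 allele in every library, whichever parent carried it.

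The deposited row for T spans chr17:8422177-8442496 (mm10). The start of the reference transcript in RefSeq (GRCm38.p6, the same build) lies 12246 bases inside the row, at position 8434423 on the plus strand. The 250 bases before that start, chr17:8434173-8434422, are shown because they are the stretch where the signals that induce T and T-box factors themselves could be read. Capitals mark a TCF/LEF core (TCAAAG, at -234 from the start) and a T-box half-site core (AGGTGT, at -14).
T promoter: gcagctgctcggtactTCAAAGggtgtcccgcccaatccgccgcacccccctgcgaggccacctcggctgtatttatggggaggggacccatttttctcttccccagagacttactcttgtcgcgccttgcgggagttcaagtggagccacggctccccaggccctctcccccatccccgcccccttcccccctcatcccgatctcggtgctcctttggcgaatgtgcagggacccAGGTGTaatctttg
Both motifs were searched on both strands, and they do not overlap. Of 32851 gene starts with a window of the same length, 13.83% held TCAAAG and 11.83% held AGGTGT, so both are common. The window had 14 CG dinucleotides, the sites of DNA methylation, against a median of 6, and 29.36% of windows had at least as many. A match describes letters, and neither binding nor methylation was measured here.

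In wild-type ExE, T was read mostly from the maternal allele, whichever strain the mother was. Shares were computed for libraries with at least 10 reads of T, and each has an exact (Clopper-Pearson) 95% interval that covers counting error only. With a BDF1 mother the maternal share was lowest at 66.7% (embryo 2; 30 of 45 reads), had a median of 75.0% and was highest at 93.2% (embryo 1; 82 of 88 reads). With a CAST mother it was 74.8%, 77.8%, 63.6% and 79.2% in embryos 1 to 4. The means were 76.9% ± 8.83 (SD, n = 7) and 73.8% ± 7.09 (SD, n = 4), and the ranges of the crosses overlapped. All 11 libraries were above 50%, with the whole interval above 50% in each. The interval closest to 50% ran from 51.0% to 80.0% (BDF1 mother, embryo 2). In ExE of that cross a mean of 57.1% of autosomal reads were BDF1, hence maternal, a value inside this interval. Of 8654 autosomal genes with enough reads in ExE of both crosses, 20 (0.231%) were over 50% maternal in every wild-type library, T among them.

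The share in ExE was high but not complete. Ranked by the lower of both cross means, T stood at 73.8%, and 13 of the 8654 genes, T included, were at or above that value. The other 12 ran from 95.8% to 100% and were Mirg, Rian and Meg3, which are non-coding RNAs of the Dlk1-Meg3 cluster, Grb10 on chromosome 11, and H19, Ascl2, Cdkn1c, Phlda2, Cd81, Slc22a18, R74862 and Tssc4, all on chromosome 7. Just below T came Pnldc1, also on chromosome 17, at 69.0%, and Mgll at 66.3%. T stood apart from the 12 genes above it, which were read almost wholly from the maternal allele. T kept 6 to 42 paternal reads per library with a BDF1 mother and 8 to 55 with a CAST mother.

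In the epiblast of the same embryos T was read from both alleles. The share was lowest at 35.3% (embryo 2, 17 reads), had a median of 57.3% and was highest at 58.3% with a BDF1 mother, and it was 47.1%, 47.0%, 41.3% and 55.3% in embryos 1 to 4 with a CAST mother. The means were 54.2% ± 8.39 (SD, n = 7) and 47.7% ± 5.76 (SD, n = 4). Read by strain rather than parent, 57.6% and 53.7% of pooled epiblast T reads were BDF1, against 57.7% and 57.5% over all autosomal genes. Every wild-type embryo had a higher maternal share in ExE than in its own epiblast, 7 of 7 and 4 of 4, by 22.7 ± 8.71 and 26.2 ± 3.78 percentage points (mean ± SD). The smallest of these differences was 14.1 points and the largest 35.5 points.

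**Figure D1:**
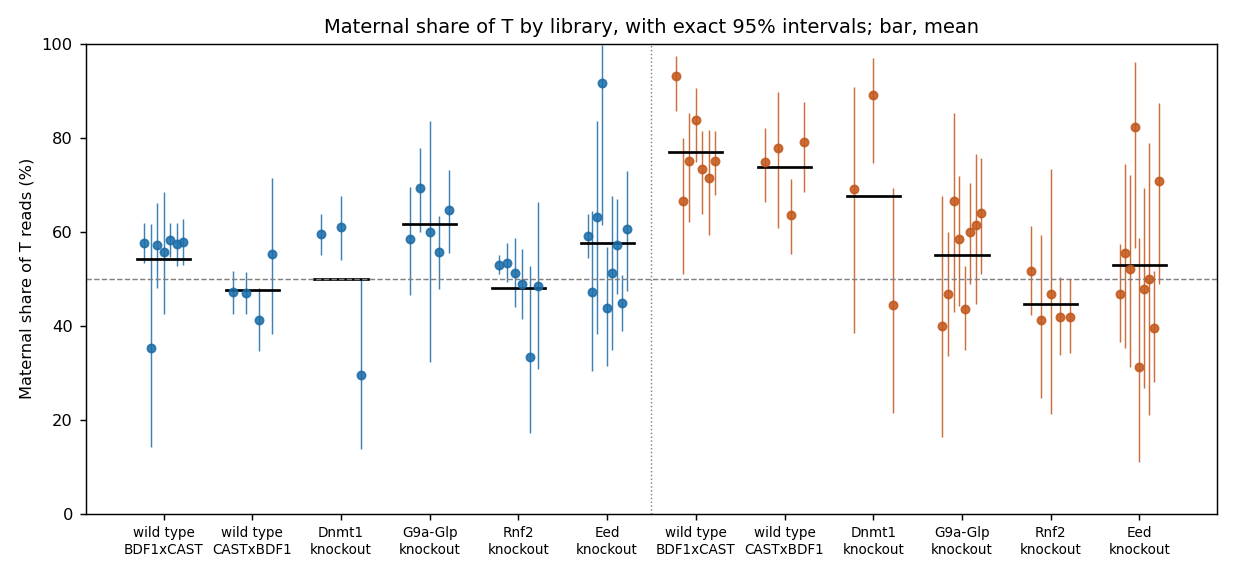
Maternal share of T reads (%) in each library with at least 10 reads, by genotype, cross and tissue (epiblast blue, ExE orange); lines are exact 95% intervals, black bars group means and the dashed line 50%. All 11 wild-type ExE libraries lie above 50%, and all 5 Rnf2 ExE libraries lie below the lowest wild-type BDF1xCAST ExE library.

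In ExE of the Rnf2, Eed and G9a-Glp knockouts most libraries had a lower maternal share of T than any wild-type library of the same cross. In Rnf2 knockout ExE the share was 51.8%, 41.2%, 46.7%, 42.0% and 42.0% in embryos 2, 4, 5, 6 and 7, with a mean of 44.7% ± 4.5 (SD, n = 5). All 5 were below the lowest wild-type BDF1xCAST library, which was so for 1.14% of the genes that could be compared, and embryos 4 and 7, the 2 libraries not in doubt, gave a mean of 41.6%. In Eed knockout ExE the share ran from 31.2% over a median of 50.0% to 82.4%, with a mean of 52.9% ± 15.5 (SD, n = 9), and 7 of 9 libraries were below every wild-type library of the cross. At least that fraction of Eed libraries was below every wild-type one for 1.93% of genes. The exceptions were embryo 4 at 82.4% (14 of 17 reads) and embryo 10 at 70.8% (17 of 24 reads), while embryo 6 had 1 read of T and gave no share.

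In G9a-Glp knockout ExE the share ran from 40.0% over a median of 59.3% to 66.7%, with a mean of 55.1% ± 10.2 (SD, n = 8). Of these libraries 7 of 8 were below the lowest wild-type library, and the highest tied with it; at least that fraction was below for 0.722% of genes. Dnmt1 knockout ExE gave 69.2%, 89.2% and 44.4% in embryos 1, 2 and 3 from 13, 37 and 18 reads, a mean of 67.6% ± 22.4 (SD, n = 3) whose range included the wild-type mean. Only embryo 3 of these was below the wild-type range, and at least 1 of 3 was below it for 34.4% of genes. The interval of embryo 2 ran from 74.6% to 97.0%, and without embryo 1, the library in doubt, the mean was 66.8%.

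The tissues of single embryos were also compared in the knockouts. The maternal share of T was higher in ExE than in the epiblast of the same embryo in 3 of 3 Dnmt1, 2 of 4 G9a-Glp, 1 of 3 Rnf2 and 2 of 8 Eed embryos with enough reads in both tissues. The mean difference was 17.6 ± 9.57 points in Dnmt1, -7.92 ± 14.8 in G9a-Glp, 1.55 ± 6.13 in Rnf2 and -4.92 ± 9.10 in Eed (SD over embryos). All 3 Rnf2 embryos compared (2, 5 and 6) had an ExE library in doubt, so no Rnf2 pair was free of doubt. Dnmt1 embryo 1 (ExE) and G9a-Glp embryo 2 (epiblast) were in doubt too. The number in the sample title and the embryo label disagree from Eed embryo 7 on, and the label was used here. By the label, both tissues of an Eed embryo have the same labelled sex, whereas pairing by title joins tissues of opposite sex in some pairs. Pairing by title gave -7.80 ± 9.75 points with 2 of 8 higher in ExE, and the 5 Eed embryos where both agree gave -7.39 ± 8.88 points. Whether the knockouts differ from each other was not tested.

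Each allele was also counted on its own scale. In wild-type BDF1xCAST ExE the maternal allele of T gave 24.2 ± 11.5 CPM and the paternal allele 7.00 ± 4.15 CPM (mean ± SD, n = 7). In the Rnf2 knockout the maternal allele gave 5.64 ± 3.21 CPM (n = 5), 23.3% of wild type, with 5 of 5 libraries below the lowest wild-type library. Such a complete separation held for 2.98% of genes. The paternal allele in these libraries was 7.09 ± 4.63 CPM, or 101.2% of wild type. Without the 3 libraries in doubt the maternal allele was at 22.9% and the paternal at 109.8% of wild type (n = 2). In the Eed knockout the maternal allele was at 22.9% of wild type (5.56 ± 4.88 CPM, n = 10) and the paternal allele at 82.0% (5.74 ± 6.56 CPM). The paternal mean was raised by embryos 1 and 9, at 18.6 and 16.9 CPM. Eed medians were 4.65 CPM (maternal) and 3.67 CPM (paternal), against 25.7 and 5.585 CPM in wild type. In maternal reads 8 of 10 libraries were below the wild-type range, as at least 8 were for 5.07% of genes.

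In G9a-Glp ExE the maternal allele was at 50.8% of wild type (12.3 ± 7.37 CPM, n = 8), whereas the paternal allele averaged 10.7 ± 8.44 CPM, 153.0% of wild type, a mean raised by embryo 7 at 26.5 CPM. In Dnmt1 ExE both alleles were lower together, at 37.6% (maternal) and 41.3% (paternal) of wild type (n = 3), or 46.9% and 47.4% without embryo 1. In the epiblast both alleles of T were at similar fractions of wild type, for example at 24.3% (maternal) and 20.4% (paternal) of wild type in G9a-Glp and at 31.1% and 34.9% in Eed. Without embryos 2 and 7 the G9a-Glp values were 23.4% and 22.0%.

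**Figure D2:**
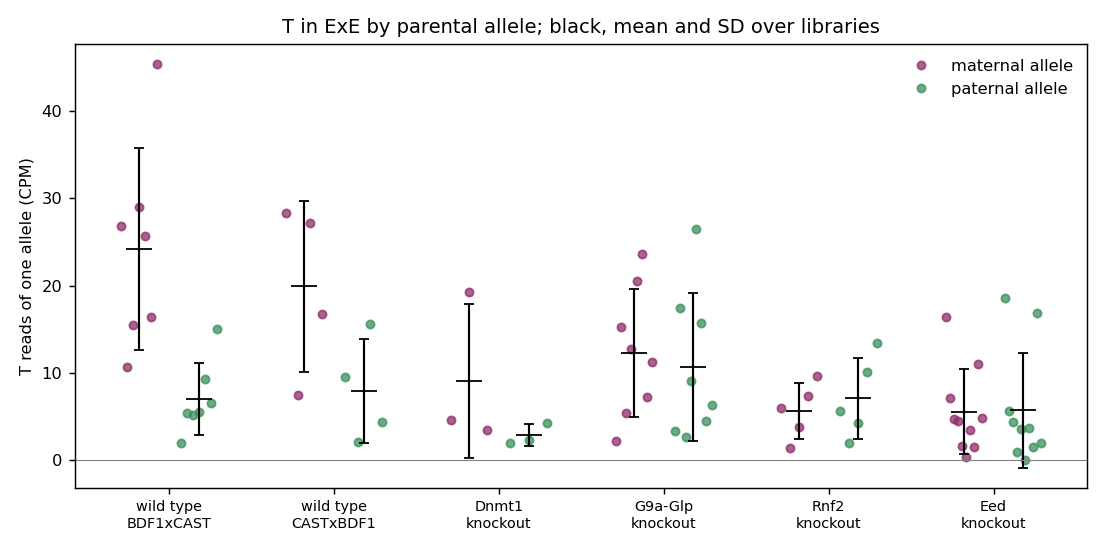
T reads of the maternal (purple) and paternal (green) allele in ExE, in CPM of each library's reads, by genotype and cross; points are libraries, black marks the mean and SD. Wild-type means are 24.2 CPM (maternal) and 7.00 CPM (paternal) with a BDF1 mother, and in Rnf2 and Eed knockouts the maternal mean is 5.64 and 5.56 CPM while the paternal mean is 7.09 and 5.74 CPM.

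The level of T differed between tissues and varied widely within the epiblast. In wild-type BDF1xCAST epiblast it ran from 5.61 CPM (embryo 2) over a median of 173.5 to 313 CPM (embryo 8), a mean of 156.0 ± 130 CPM (SD, n = 7). With a CAST mother it was 173 CPM, 193 CPM, 91.4 CPM and 13.8 CPM in embryos 1 to 4. In wild-type BDF1xCAST ExE it ran from 16.1 over a median of 28.8 to 60.4 CPM (embryo 8), a mean of 31.2 ± 14.7 CPM (SD, n = 7), and with a CAST mother it was 37.9, 9.68, 42.8 and 21.1 CPM. The ExE and epiblast ranges overlapped, since epiblast embryos 2 and 4 of the first cross and embryo 4 of the second held less T than their own ExE. In edgeR's quasi-likelihood test T was 4.71-fold lower in ExE (log2 -2.24, SE 0.60, adjusted p = 0.00402), in a comparison that called 56.7% of all genes tested in either direction.

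The crosses did not differ detectably in the level of T. The CAST-mother epiblast was lower by log2 -0.35 (SE 0.80, edgeR adjusted p = 0.939; 0.0103% of genes called) and the CAST-mother ExE by log2 -0.22 (SE 0.40, edgeR adjusted p = 0.884; 1.06% called). With these errors a change of severalfold in the epiblast could have been missed.

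The ExE libraries held far less of most other streak genes than of T. T in wild-type BDF1xCAST ExE was at 20.02% of its epiblast level. Mixl1, a homeobox gene of the streak, was at 0.582%, Mesp1, a factor of nascent mesoderm, at 0.0749%, and Lefty2, a Nodal antagonist, at 0.299%. Fgf8 and Foxa2 had no read in any of these 7 ExE libraries. Most epiblast markers were likewise low, with Fgf5 at 0.144%, Tdgf1 at 0.503%, Otx2 at 0.604%, Slc7a3 at 0.757% and Nanog at 2.46% of the epiblast level. Of the 9 epiblast markers tested 7 were lower in ExE, where 2685 of all 9340 genes tested were lower. Utf1 was higher, at 245% of the epiblast level, and Pou3f1, at 124%, did not pass (edgeR adjusted p = 0.00106 and 0.466). Other genes were shared by both tissues: Eomes, a T-box factor of trophoblast and streak, was at 116% and Cyp26a1, a retinoic acid-degrading enzyme, at 222%, with Axin2, a Wnt target, at 22.1%. Kdr, on the nascent mesoderm list, had 48 reads in the epiblast and 146 in the ExE of this cross. The 1 gene of that list tested between the tissues did not pass (log2 1.32).

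**Figure D3:**
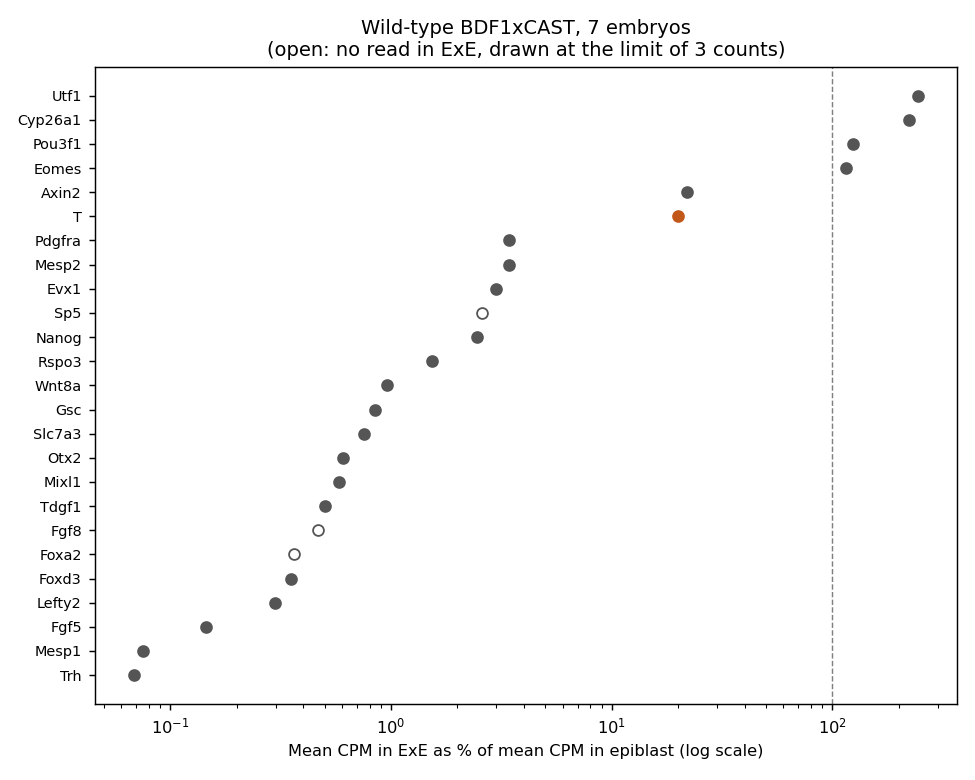
Mean CPM in wild-type BDF1xCAST ExE as a percentage of mean CPM in the epiblast of the same 7 embryos (log axis, with a dashed line at 100%). T is orange, and the others are part of the listed epiblast, streak and mesoderm genes. Listed genes with few epiblast reads, such as Kdr (48 reads, against 146 in ExE), are not drawn. Open circles had no read in ExE and are drawn at the limit that 3 counts allow. T is at 20.02%, while Fgf5, Mixl1, Tdgf1 and Otx2 are each below 1%.

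Markers of maternal tissue were at or near 0 in the same libraries. The decidua and blood genes on the fixed list (10 of 12 in the table) summed to 0 to 1.43 CPM in wild-type BDF1xCAST ExE, with a median of 0, and 7 of the 10 had no read in any library. With a CAST mother the sum was 0 to 1.37 CPM. Their part in the maternal share of T was not tested. The visceral endoderm list summed to 418 to 837 CPM in wild-type BDF1xCAST ExE, and in the Dnmt1 knockout ExE to 1236 to 1444 CPM. Cldn6, a claudin, made up 396 to 809 CPM and 1189 to 1401 CPM of these sums, and the other 11 genes on the list, Afp, Apoa1 and Ttr among them, summed to 12.5 to 29.3 and 19.9 to 47.4 CPM. The part of these genes in the level or share of T was not tested either.

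T was lower in the ExE of 3 knockouts, with the smallest p for Eed. In Eed ExE the level ran from 0.391 CPM (embryo 6) over a median of 6.99 to 35.0 CPM (embryo 1), a mean of 11.3 ± 11.2 CPM (SD, n = 10), and 8 of 10 libraries were below every wild-type library, as at least 8 were for 6.24% of genes. T was 3.27-fold lower (log2 -1.71, SE 0.46, edgeR adjusted p = 0.00500), where 40.8% of all genes were called in either direction and 18.1% as lower. In Rnf2 ExE T was 11.6, 3.31, 8.12, 17.4 and 23.1 CPM in embryos 2, 4, 5, 6 and 7, against a wild-type mean of 31.2 CPM, and 3 of 5 libraries were below the wild-type range, as at least 3 were for 13.4% of genes. The difference was 2.55-fold (log2 -1.35, SE 0.42, edgeR adjusted p = 0.0286; 22.2% of genes called). In Dnmt1 ExE T was 6.62, 21.6 and 7.74 CPM in embryos 1 to 3, of which 2 were below the wild-type range (at least 2 for 12.3% of genes), and it was 3.21-fold lower (log2 -1.68, SE 0.48, edgeR adjusted p = 0.0264; 18.5% of genes called).

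The G9a-Glp ExE libraries ran from 5.54 over a median of 19.7 to 47.0 CPM, a mean of 23.0 ± 15.2 CPM (SD, n = 8) that overlapped wild type. The difference of log2 -0.56 (SE 0.38) did not pass (edgeR adjusted p = 0.336; 15.2% of genes called). The Eed call held when any 1 library was left out. The Rnf2 call did not hold without wild-type embryo 8 or Rnf2 embryo 2, 4 or 5 (edgeR adjusted p 0.0517 to 0.0654), nor without the 3 libraries in doubt (adjusted p = 0.248); the Dnmt1 call did not hold without Dnmt1 embryo 1 (the library in doubt) or embryo 3 (edgeR adjusted p = 0.118 and 0.141).

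T was also lower in the epiblast of knockouts of G9a-Glp and Eed, against a wild-type group that itself spanned 5.61 to 313 CPM. The G9a-Glp epiblast ran from 1.71 (embryo 7) over a median of 35.8 to 67.8 CPM, a mean of 35.3 ± 28.2 CPM (SD, n = 6). All 6 were below the wild-type mean but only embryo 7 was below the wild-type range. T was 4.63-fold lower (log2 -2.21, SE 0.76, edgeR adjusted p = 0.0324), where 34.6% of genes were called. The Eed epiblast ran from 6.17 over a median of 25.3 to 227 CPM (embryo 1), a mean of 51.0 ± 71.6 CPM (SD, n = 9), and no library was below the wild-type range. T was 3.43-fold lower (log2 -1.78, SE 0.69, edgeR adjusted p = 0.0497; 35.7% of genes called).

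Marker sums also differed between these epiblast groups. The epiblast list summed to 1219 to 2362 CPM in wild-type BDF1xCAST epiblast, 2333 to 3211 CPM in G9a-Glp and 2018 to 5879 CPM in Eed. Of all genes tested, 1873 of 9562 rose in G9a-Glp and 1889 of 9820 in Eed epiblast. Of 9 epiblast markers tested, 2 rose in G9a-Glp and 2 in Eed, a share near that over all genes. Utf1 went from 77.8 CPM to 713 and 534 CPM (edgeR adjusted p = 3.620e-07 and 1.770e-06), and Tdgf1 fell in G9a-Glp. The visceral endoderm list summed to 178 to 654 CPM in wild type, 513 to 863 CPM in G9a-Glp and 382 to 945 CPM in Eed. Of these markers 3 of 7 tested rose in G9a-Glp (Apoa1, Cldn6 and Dab2) and 2 of 4 in Eed (Cldn6 and Rbp4). Without Cldn6 the list summed to 19.5 to 498.5, 26.0 to 388 and 49.3 to 88.6 CPM, and to 2812 CPM in 1 CASTxBDF1 epiblast library, embryo 2. Such rises were not limited to G9a-Glp and Eed. In Dnmt1 epiblast, where the level of T did not pass, Utf1, Trh and Cldn6 rose and the epiblast list summed to 2737 to 3251 CPM. There 711 of all 10248 genes tested rose. In Rnf2 epiblast Pou5f1, Utf1, Trh and Cldn6 rose and the epiblast list summed to 1356 to 2625 CPM, where 1827 of all 10134 genes tested rose. The part of either list in the level of T was not tested.

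In Rnf2 epiblast T ran from 4.69 over a median of 23.3 to 144 CPM, a mean of 43.6 ± 53.3 CPM (SD, n = 6), and the difference of log2 -1.86 (SE 0.81) did not pass (edgeR adjusted p = 0.0935; 31% of genes called). Dnmt1 epiblast held 236, 184 and 18.1 CPM in embryos 1 to 3, within the wild-type range, and the difference was log2 -0.30 (SE 0.90, edgeR adjusted p = 0.866; 14.1% of genes called). Both epiblast calls were close to the threshold. The G9a-Glp call did not hold without wild-type embryo 1 or 6 or G9a-Glp embryo 1, 3, 5 or 7 (edgeR adjusted p 0.0534 to 0.0679) or without G9a-Glp embryos 2 and 7 together (adjusted p = 0.0803), and the Eed call not without wild-type embryo 1, 6, 7 or 8 or Eed embryo 2, 3, 4, 5, 6, 8 or 10 (0.0732 to 0.114); the Rnf2 difference passed without wild-type embryo 2 or Rnf2 embryo 1 (0.0405 and 0.0248).

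**Figure D4:**
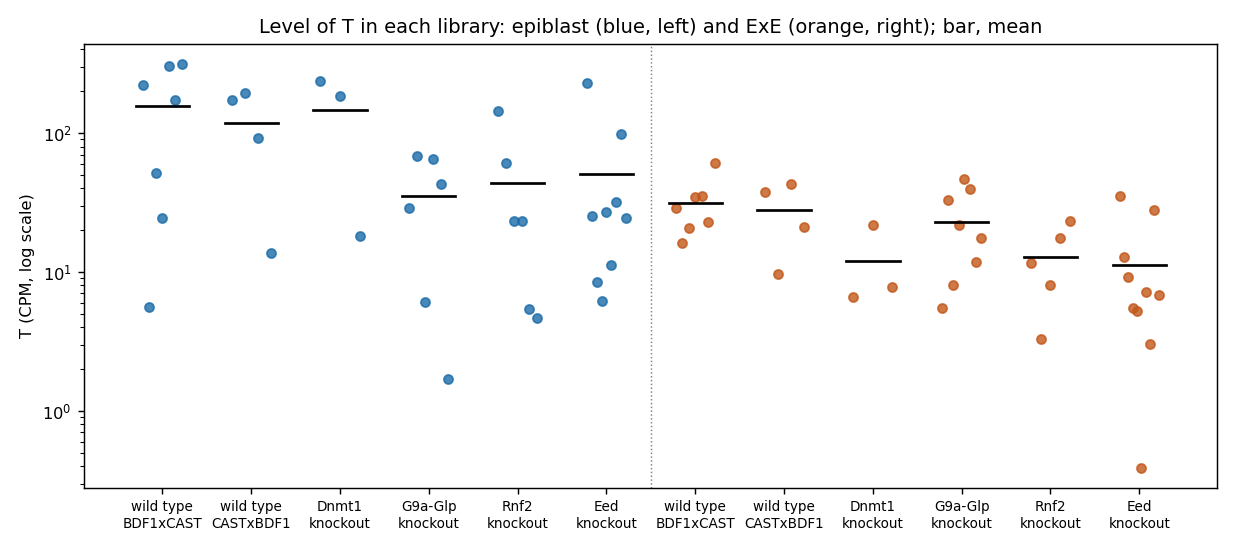
Level of T in CPM (log axis) in every library, by genotype, cross and tissue (epiblast blue, ExE orange); black bars are group means. Wild-type BDF1xCAST epiblast spans 5.61 to 313 CPM and wild-type BDF1xCAST ExE 16.1 to 60.4 CPM, and 8 of 10 Eed ExE libraries lie below the latter range.

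Over the 12 groups the mean level of T ordered as wild-type BDF1xCAST (156.0 CPM), Dnmt1 (146 CPM) and CASTxBDF1 epiblast (118 CPM), then Eed, Rnf2 and G9a-Glp epiblast (51.0, 43.6 and 35.3 CPM). The wild-type BDF1xCAST and CASTxBDF1 ExE (31.2 and 27.9 CPM) and G9a-Glp ExE (23.0 CPM) followed, with Rnf2, Dnmt1 and Eed ExE last (12.7, 12 and 11.3 CPM). Neighbours in this order differed by less than the SD of either group, except that the step from G9a-Glp to Rnf2 ExE exceeded the SD of the latter (7.78 CPM).

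Other genes of the streak, from a list of 23 in the table, also fell in the epiblast of the G9a-Glp, Eed and Rnf2 knockouts. The comparisons share their wild-type libraries, and listed genes with too few reads in a comparison were not tested in it. In G9a-Glp epiblast 5 of 11 tested fell and 0 rose, where 15% of all genes fell, with a median of log2 -1.59 against 0.01 over all genes: Mesp1, Rspo3, Lefty2, Foxa2 and Cyp26a1. In Eed epiblast 6 of 10 fell and 0 rose, where 16.5% of all genes fell (median log2 -1.37): Mixl1, Cyp26a1, Rspo3, Foxa2, Eomes and Axin2. In Rnf2 epiblast 4 of 11 fell and 0 rose, where 13% of all genes fell (median log2 -1.51): Mixl1, Foxa2, Rspo3 and Eomes. Mixl1 went from 101.8 ± 95.9 CPM (n = 7) to 2.77 ± 3.82 CPM in Rnf2 (n = 6; edgeR adjusted p = 0.000944) and to 9.13 ± 18.9 CPM in Eed (n = 9; edgeR adjusted p = 0.00156). In Dnmt1 epiblast 0 of 15 passed, with a median of log2 0.49. The G9a-Glp count rests on single libraries. It fell from 5 to 0 without wild-type embryo 6, to 1 without G9a-Glp embryo 1, 4, 5 or 7, and to 2 without wild-type embryo 1, 7 or 8 or G9a-Glp embryo 3. It was 3 without both libraries in doubt.

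The signals upstream of T did not move in 1 direction in the epiblast of the Dnmt1, Rnf2 and Eed knockouts. Nodal, a ligand that induces T, rose in Dnmt1, Rnf2 and Eed epiblast, from 23.1 ± 13.2 CPM to 54.3 ± 12.1, 70.5 ± 15.8 and 71.3 ± 31.3 CPM. Lefty1, which blocks Nodal, rose in Rnf2 and Eed epiblast, in Eed from 8.61 ± 10.2 to 155 ± 83.5 CPM. Other genes on the list of 9 inhibitors of T induction did not all move with it. In Eed epiblast 4 inhibitors were tested, with Lefty1 and Sfrp1 rising and Chrd falling. In Rnf2 epiblast 4 were tested, with Lefty1 rising and Chrd falling. In G9a-Glp epiblast Chrd and Lefty2 fell and 0 of 4 rose, and in Dnmt1 epiblast 0 of 6 passed. Ctnnb1, the Wnt effector beta-catenin, fell in all 4 knockout epiblasts, to between 0.567 and 0.628 of wild type on the fitted scale, and Tdgf1, the Nodal co-receptor, fell in G9a-Glp epiblast from 511 ± 397 to 171 ± 141 CPM. The list of 16 inducers also held Tcf7l1, a repressor of Wnt targets. In G9a-Glp epiblast 11 of the list were tested, where 34.6% of all genes were called. Tcf7l1 alone rose and 4 fell (Fgf4, Tdgf1, Smad1 and Ctnnb1). In Eed epiblast 11 were tested, with 1 rising (Nodal) and 2 falling (Smad1 and Ctnnb1), where 35.7% were called. In Rnf2 epiblast 12 inducers were tested, with Bmp4 and Nodal rising and Smad1 and Ctnnb1 falling, where 31% of all genes were called. In Dnmt1 epiblast 11 were tested, with Nodal rising and Ctnnb1 falling, where 14.1% were called.

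In ExE the genes around T moved in both directions without Eed or Rnf2. Bmp4, the ExE ligand that acts on the epiblast, fell from 67.8 ± 21.9 CPM (n = 7) to 15.1 ± 12.7 CPM in Eed (n = 10; edgeR adjusted p = 7.545e-05) and to 26.5 ± 15.6 CPM in Rnf2 ExE (n = 5; adjusted p = 0.0289). Eomes fell to 34.7 ± 19.7 CPM in Eed ExE from 115 ± 27.6 CPM, with 10 of 10 libraries below the wild-type range (among that 1.41% of genes), and to 68.5 ± 29.4 CPM in Rnf2 ExE. Cyp26a1 fell in both, to 53.2 ± 54.6 and 99.5 ± 69.0 CPM from 255 ± 79.7 CPM. Wnt3 rose in Eed ExE from 0.145 ± 0.263 to 6.48 ± 4.26 CPM, and Nodal from 0.854 ± 1.44 to 5.57 ± 4.05 CPM, while T fell there. Sfrp1, the only 1 of 9 listed inhibitors of T induction tested in Eed ExE, rose too (log2 4.58). It had 16 reads in wild-type BDF1xCAST ExE. In Rnf2 ExE 2 inhibitors were tested, of which Sfrp1 rose and 0 fell. Of 3 streak genes tested in Eed ExE, 2 fell and 0 rose, where 40.8% of all genes were called and 18.1% fell. Of 4 tested in Rnf2 ExE, 2 fell and Mesp2 rose, where 22.2% were called; 1 streak gene passed without Rnf2 embryo 2, as without the 3 libraries in doubt. In Dnmt1 and G9a-Glp ExE 0 of 3 passed. The ExE marker list was lower in Eed ExE, with sums of 573 to 1122 CPM against 1206 to 1992 CPM in wild type, and its part in the level of T was not tested.

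The maternal share of T in the epiblast did not change detectably in any knockout. It was 59.5%, 61.0% and 29.6% in the Dnmt1 embryos 1 to 3, and had a mean of 61.6% ± 5.43 in G9a-Glp (n = 5), 48.1% ± 7.52 in Rnf2 (n = 6) and 57.7% ± 14.6 in Eed (n = 9) against 54.2% ± 8.39 in wild type (n = 7). In edgeR's quasi-likelihood test of the ratio of alleles the adjusted p was 1 for Dnmt1, 0.816 for G9a-Glp, 0.570 for Rnf2 and 0.906 for Eed. These fits called 0.894%, 1.79%, 0.686% and 1.06% of genes. The log2 ratio of maternal to paternal reads differed from wild type by -0.01 (SE 0.24), 0.24 (SE 0.24), -0.37 (SE 0.18) and -0.15 (SE 0.21), in the same order.

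The genes next to T had lower maternal shares in at least 1 of the crosses. Of 27 genes that start within 1 Mb of the start of T, 5 had enough reads in wild-type ExE: Sft2d1 (starting at -111.1 kb from the start of T), Fgfr1op (at -256.7 kb), Rsph3a, Tagap and Gm1604a. Sft2d1 had maternal shares of 62.0% ± 7.73 (n = 7) with a BDF1 mother and 54.4% ± 3.49 (n = 4) with a CAST mother, and Fgfr1op 59.8% ± 3.79 and 47.5% ± 2.53. Rsph3a gave 53.7% and 64.7%, and Gm1604a 48.4% and 68.8%. Tagap followed the strain, with 2 of 33 reads maternal when the mother was BDF1 and 16 of 16 when she was CAST. None of the 5 was as high as T in both crosses. The row of T overlaps that of T2 by 552 bases, so reads there could be split between them. T2 held 33 reads in all wild-type ExE libraries against 1021 for T, at most 8 in any library.

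The imprinted pair of proximal chromosome 17 was read in few counts but from 1 parent. Igf2r gave 26 of 30 and 21 of 21 maternal reads in wild-type ExE with a BDF1 and a CAST mother, and Airn 0 of 48 and 1 of 35. Igf2r starts 4260 kb beyond the start of T, outside the window of neighbours. Other genes of the T pathway were read from both parents in wild-type ExE: Eomes at 59.6% and 43.2%, Bmp4 at 55.0% and 46.9%, Cyp26a1 at 48.2% and 50.5%, and Ctnnb1 at 52.8% and 47.4%, with a BDF1 and a CAST mother in turn. Tcf7l1, a repressor of Wnt targets, followed the BDF1 allele at 73.2% and 29.9%.

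**Figure D5:**
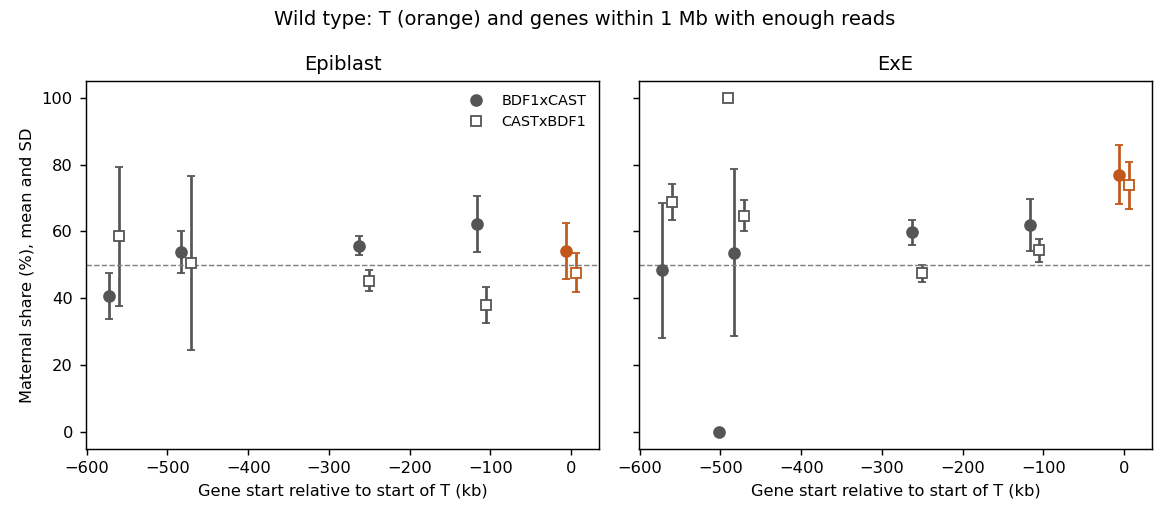
Maternal share (%) of T (orange) and of genes within 1 Mb with enough reads, in wild-type epiblast (left) and ExE (right), against the distance of the gene's start from that of T in kb; filled circles BDF1xCAST, open squares CASTxBDF1 (shifted apart sideways), bars SD over libraries. In ExE T has means of 76.9% and 73.8%, and Sft2d1, the closest neighbour, 62.0% and 54.4%.

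By a fixed measure of likeness, the root mean square difference of centred log2(mean CPM + 1) over the 12 groups, the genes whose level was most like that of T among 14116 were A230087F16Rik (0.343), Mettl7a3 (0.395), Pcca (0.423), Gm12709 (0.428) and 1190002N15Rik (0.440). A230087F16Rik fell from 26.0 CPM in wild-type BDF1xCAST epiblast to 2.83 CPM in ExE of that cross and 1.53 CPM in Eed ExE. By the same kind of difference in mean maternal share over the 12 groups, in percentage points, the nearest of 6331 genes were Rictor (8.27), Mob2 (8.44), B3gnt5 (8.48), Xpa (8.70) and E130308A19Rik (8.86). Rictor, a subunit of the mTORC2 kinase complex, had maternal shares of 62.8% and 67.3% in wild-type ExE of both crosses and 49.3% in Rnf2 and 51.2% in Eed ExE. It was unlike T in Dnmt1 ExE, at 49.25% where T had 67.6%. Mob2 had 53.05% in wild-type BDF1xCAST ExE, 52.7% in Rnf2 and 50.9% in Eed ExE. All genes were read in the same libraries, and the likeness is a description.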

How the data were processed

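RNA of single E6.5 tissues was made into full-length cDNA (SMART-Seq v4) and Nextera XT libraries and sequenced in pairs, per the labels' protocols. The submitters' processing notes name STAR 2.5.0, HTSeq and mm10; their roles are not given in the sources used here. The authors deposited, per gene and library, a count of reads over positions that differ between BDF1 and CAST, not normalized. The authors also deposited an allelic score, the CAST share of those reads minus 0.5 in 2 decimals, and a further score, a signed -log10 binomial p-value, per the file headers and notes. Reads of each allele were recovered from the count and both scores: a whole number fitted within 0.0105 for 99.494% of values with at least 10 reads. CPM are counts scaled to a library total of 1000000. Every column had a sample (0 left over), and the bisulfite sample was not analysed here. Depth (1141414 to 17653087 counts) sets the precision of each share; PCR copies are not independent, so intervals cover counting error only.

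Groups and embryo numbers came from the labels. Total counts were compared with edgeR 4.0.16 (quasi-likelihood, TMM, filterByExpr, R 4.3.3), 2 groups a fit, and allele counts in the epiblast with edgeR on maternal and paternal counts, with a term for each library. There a gene needed 3 libraries per group, each holding 10 reads of it or more. Tests were two-sided, with Benjamini-Hochberg adjustment over all genes tested and a threshold of 0.05. The steps were tested on simulated data. Alternatives were DESeq2 1.42.0, RLE factors, no filter, 1 fit over all BDF1xCAST groups, limma 3.58.1 on log ratios (0.5 added), at least 20 reads, exact permutation, embryo number as a block, and leaving out libraries; allele values without the libraries in doubt, and Eed pairs by title, were added after seeing the data. Epiblast and ExE with the same embryo label come from 1 embryo, per the labels; for Eed embryos 7 to 10 the number in the title differs from that label, which was used; deviations from the group means correlated between the 7 wild-type BDF1xCAST pairs (r from 0.02 to 0.41, across genes), and with embryo as a block the tissue difference kept its direction and call. Knockout and wild-type embryos share a number only. T, the gene lists and the tests were chosen with earlier results of these data known. Genes named are T, the targeted genes, listed genes (those past the threshold first), genes within 1 Mb of T with enough reads, and the 5 nearest to T in level and in share.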

Additional observations from a re-analysis of the deposited data

Results flagged for a closer look

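Of 20 groups of 4 to 10 samples examined for T, 5 held a library apart from the rest by Dixon's criterion, which chance meets in about 1 group of 20. For the maternal share these were wild-type BDF1xCAST epiblast embryo 2 at 35.3% (6 of 17 reads), Rnf2 epiblast embryo 6 at 33.3% (10 of 30 reads) and Eed epiblast embryo 4 at 91.7% (11 of 12 reads). All of them rest on few reads, and the intervals were 14.2% to 61.7%, 17.3% to 52.8% and 61.5% to 99.8%. The ExE of that Eed embryo also had the highest share of its group, 82.4%, from 17 reads. For the level, Eed epiblast embryo 1 held 227 CPM, where the other 8 held 6.17 to 97.8 CPM, and wild-type BDF1xCAST ExE embryo 8 held 60.4 CPM, where the other 6 held 16.1 to 35.0 CPM. The epiblast of the latter embryo also had the highest level of T of its group, 313 CPM.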

How the results depend on the processing

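Of 265 alternative values for the level and epiblast share of T, 215 kept the direction and the side of the threshold, 33 lost a call, 4 gained one and 13 changed sign; the causes were not tested. The lower level in Eed ExE and the tissue difference kept their call under every alternative run (adjusted p 0.000702 to 0.0189 and 8.266e-05 to 0.0110). The other values are log2 differences in total reads unless said otherwise. With embryo number as a replicate block, which in these comparisons links embryos that share only a number, Dnmt1 epiblast changed to 0.57, CAST-mother epiblast to 0.90 and CAST-mother ExE to 0.057, and the calls for G9a-Glp epiblast (-1.48), Eed epiblast (-2.03) and Rnf2 ExE (-1.18) were lost. One fit over all BDF1xCAST groups ended the calls for Eed epiblast (-1.78), Dnmt1 ExE (-1.69) and Rnf2 ExE (-1.38), and DESeq2 that for Eed epiblast (-1.80, adjusted p = 0.0566). Without the libraries in doubt the calls for G9a-Glp epiblast (-2.14), Dnmt1 ExE (-1.41) and Rnf2 ExE (-1.34) were lost. With no filter on low counts the Rnf2 epiblast difference passed (-1.73). For the epiblast share, the mean in G9a-Glp was 7.43 percentage points higher and passed an exact permutation test alone (two-sided p = 0.0480, unadjusted, 4 such tests), and the sign for Eed turned with limma (log2 0.25), with the block (0.19) and for the mean share (3.44 points).

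Leaving out 1 library gave -0.83 to 0.22 for Dnmt1, -2.49 to -1.96 for G9a-Glp, -2.71 to -1.59 for Rnf2 and -2.53 to -1.52 for Eed epiblast. It gave -2.38 to -1.35 for Dnmt1, -0.81 to -0.25 for G9a-Glp, -1.69 to -1.06 for Rnf2 and -2.07 to -1.41 for Eed ExE. It gave -2.52 to -1.98 for the tissues, -0.66 to 0.030 and -0.49 to 0.075 for the crosses in epiblast and ExE, and -0.18 to 0.19 for the epiblast share in Dnmt1. The block moved genes called from 3144 to 1125 in Rnf2 epiblast, 3510 to 1909 in Eed epiblast and 2113 to 494 in Rnf2 ExE, where leaving out the 3 doubted libraries gave 529. Deviations of knockout and wild-type embryos of equal number correlated at r from -0.33 to 0.33 across genes, and in no comparison did every embryo correlate best with its own number. One fit moved the count from 1445 to 2286 in Dnmt1 epiblast and from 1399 to 2238 in G9a-Glp ExE, and no filter from 5293 to 8651 between tissues. Leaving out 1 library gave 671 to 2447 in Dnmt1 epiblast (1445 with all), and in Dnmt1 ExE leaving out Dnmt1 embryo 1, 2 or 3 gave 1047, 1017 or 603 in place of 1804. Counts of streak genes called ranged from 0 to 9 in G9a-Glp, 1 to 8 in Rnf2 and 4 to 9 in Eed epiblast (5, 4 and 6 as reported). Few reads limit the share of single libraries: 45 reads gave an interval of 51.0% to 80.0%.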
